A study of Mus musculus with 6 samples.

Results

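The *Usp17l* genes *Usp17la*, *Usp17lb*, *Usp17lc*, *Usp17ld* and *Usp17le* were taken from the GENCODE vM21 annotation of mouse chromosome 7 (mm10), and every DPPA4 peak within 50 kb of a gene body was collected. These are 5 of the 21938 annotated protein-coding genes on chromosomes 1 to 19, X and Y. Their surroundings held 36 of the 99695 DPPA4-bound regions of the genome. The cells were mouse embryonic stem cells (mESCs) on a BL6/129 hybrid background, in which EHMT2, a methyltransferase that deposits H3K9me2, carried a dTAG degron and GFP was driven by the MERVL promoter. All cells had received dTAG for 72 h, so EHMT2 was depleted in both groups, and no cells with intact EHMT2 were analysed here. GFP+ cells stand for 2-cell-like cells (2CLCs), a rare state in which MERVL elements are transcribed as in the 2-cell embryo, and GFP- cells for mESCs. The sort rests on this one reporter, and peak lists hold no RNA values with which marker genes of either state could be checked.

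The data were 2 peak lists from CUT&RUN, in which an antibody directs a nuclease to the chromatin a protein occupies and the released fragments are sequenced. Each list pools 2 anti-DPPA4 libraries, so there is no spread between replicates and no difference between the lists could be tested. The GFP- list held 83602 peaks on these chromosomes (median fold enrichment 4.27) and the GFP+ list 54642 (median 4.13). Fold enrichment, as deposited, divides the fragments over a summit by the background that the peak caller estimated, and whether the IgG libraries entered that background is not given in the sources used here. The −log10 q is the adjusted significance of the summit, with a median of 3.71 in the GFP- list and 3.44 in the GFP+ list. The number of reads behind either list is unknown.

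USP17-like proteins are cysteine proteases that remove ubiquitin from other proteins. In the mouse they are encoded by a small family of close copies that lies among olfactory receptor (*Olfr*) genes, and the first members were found as DUB-1 and DUB-2, immediate-early genes of blood cell lines that respond to cytokines. The genes are short, with 1 or a few small 5′ exons and a last exon that encodes nearly the whole protease. DPPA4 binds DNA together with DPPA2, and both are known as activators of genes of the 2-cell stage.

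The promoters of the family are shown first because peaks lay over them in one list and not in the other. RefSeq promoter entries (GRCm38.p6, from 250 bases before to 50 bases after a start) were found for 4 of the 5 members. *Usp17le* had no entry. Each sequence below runs 5′ to 3′ along the gene, and capitals mark the stretches of at least 15 bases that all 4 share.
Usp17ld, chr7:103252456-103252755, - strand: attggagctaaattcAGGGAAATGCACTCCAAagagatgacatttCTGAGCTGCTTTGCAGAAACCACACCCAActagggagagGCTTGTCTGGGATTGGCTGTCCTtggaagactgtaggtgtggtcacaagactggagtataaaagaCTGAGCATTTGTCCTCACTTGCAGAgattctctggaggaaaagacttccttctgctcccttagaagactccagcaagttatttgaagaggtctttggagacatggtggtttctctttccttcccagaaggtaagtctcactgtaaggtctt
Usp17lc, chr7:103416446-103416745, + strand: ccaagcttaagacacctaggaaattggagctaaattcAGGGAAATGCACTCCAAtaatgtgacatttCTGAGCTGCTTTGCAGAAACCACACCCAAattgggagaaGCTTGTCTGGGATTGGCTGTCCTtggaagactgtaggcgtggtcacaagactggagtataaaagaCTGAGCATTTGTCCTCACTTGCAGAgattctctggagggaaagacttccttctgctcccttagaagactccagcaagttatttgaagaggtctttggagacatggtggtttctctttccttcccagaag
Usp17lb, chr7:104842534-104842833, - strand: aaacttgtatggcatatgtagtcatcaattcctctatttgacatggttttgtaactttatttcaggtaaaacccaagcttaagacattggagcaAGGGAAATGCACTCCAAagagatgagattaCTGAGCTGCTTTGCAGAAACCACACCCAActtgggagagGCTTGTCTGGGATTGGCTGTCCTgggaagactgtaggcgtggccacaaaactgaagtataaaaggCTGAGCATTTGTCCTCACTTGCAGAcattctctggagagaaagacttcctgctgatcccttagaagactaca
Usp17la, chr7:104856766-104857065, + strand: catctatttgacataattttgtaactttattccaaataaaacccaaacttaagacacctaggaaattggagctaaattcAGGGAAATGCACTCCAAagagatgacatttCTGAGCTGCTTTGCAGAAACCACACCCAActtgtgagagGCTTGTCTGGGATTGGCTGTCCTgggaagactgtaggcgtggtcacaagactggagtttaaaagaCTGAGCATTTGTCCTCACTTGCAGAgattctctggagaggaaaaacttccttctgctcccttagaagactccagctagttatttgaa

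The 4 promoters shared 94 bases in such stretches, the longest of 29, 25, 23 and 17 bases, and aligned pairwise with 91.7% to 96.8% identity. The letters TATAAAA, searched on both strands, were found in 3 of the 4, against 5.48% of all 32851 promoters. As the 4 are close copies, these 3 are not independent occurrences. The letters began 31 bases before the start in *Usp17lb*, 88 in *Usp17lc* and 110 in *Usp17ld*. The DUX motif (an inverted repeat of TGATT around 1 base) was found in 0 of the 4 and in 0.0335% of all. Of the 300 bases, a GFP+ peak covered 250 in *Usp17la*, 213 in *Usp17ld*, 175 in *Usp17lb* and 0 in *Usp17lc*. The *Usp17lc* entry is that of the inner of its 2 annotated starts, which lies 1.62 kb inside the outer one, and the GFP+ peak of this gene lay at the outer start.

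The longest shared stretch, of 29 bases, was searched on both strands of the genome. It occurred 7 times, and all 7 copies lay at *Usp17l* genes on chromosome 7. Apart from the 4 promoters above, it was found at the outer start of *Usp17lc*, at the start of *Usp17le* and ahead of the second exon of *Usp17la*. These 3 copies are given with 20 bases on either side, in capitals where they match the 29 bases.
Usp17lc outer start, chr7:103414869-103414937, + strand: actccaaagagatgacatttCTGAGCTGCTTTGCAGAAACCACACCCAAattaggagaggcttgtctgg
Usp17le start, chr7:104777627-104777695, - strand: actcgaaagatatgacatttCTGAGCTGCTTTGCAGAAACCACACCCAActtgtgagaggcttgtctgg
Usp17la ahead of its second exon, chr7:104859167-104859235, + strand: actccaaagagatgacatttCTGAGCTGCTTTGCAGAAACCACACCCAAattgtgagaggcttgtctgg

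GFP+ peaks covered 4 of the 7 copies and GFP- peaks 0 of the 7. The 4 covered copies were those at the first annotated starts of *Usp17la*, *Usp17lb*, *Usp17lc* and *Usp17le*. The copy at *Usp17ld* lay 13 bp beyond the edge of the peak over its start. The copies at the inner start of *Usp17lc* and inside *Usp17la* lay under no peak of either list. In all 4 covered copies the summit was 204 to 313 bp inside the gene from this stretch, which placed it over the first exon or the start of the first intron.

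Most DPPA4 regions around the genes were found in the 2CLC list alone. Of the 36 regions, 31 were GFP-positive-specific (held peaks of the GFP+ list alone), 4 were common to both lists and 1 was GFP-negative-specific. The GFP-positive-specific share was 86.1% (Wilson 95% interval 71.3% to 93.9%, counting error only), against 18.4% of all regions of the genome. The 3 windows that the genes and their 50 kb flanks form span 402.2 kb, of which 9.12% lay under GFP+ peaks and 1.03% under GFP- peaks. On the gene bodies, 51.0% of the sequence lay under GFP+ peaks and 0% under GFP- peaks. A GFP-positive-specific region within 50 kb was by itself common, since 59.9% of protein-coding genes had one.

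**Figure D1:**
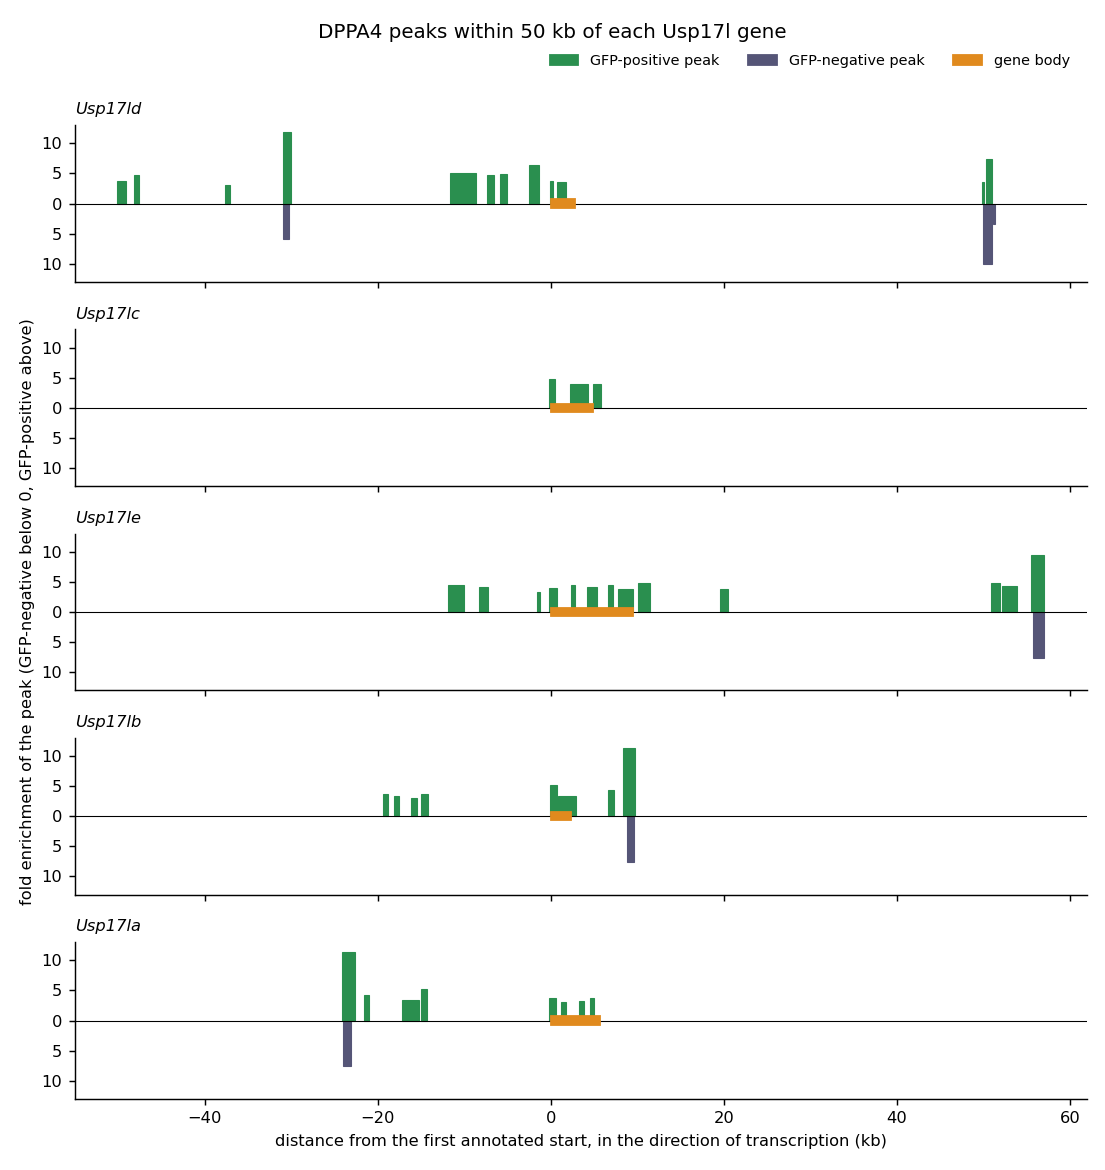
DPPA4 peaks within 50 kb of each of the 5 genes, placed by distance from the first annotated start in the direction of transcription (x axis, kb), with fold enrichment upward for GFP+ peaks and downward for GFP- peaks (y axis). GFP+ peaks (green) stood over every gene body (orange), whereas the 5 GFP- peaks (grey-blue) lay outside the bodies and 4 of them faced a GFP+ peak. *Usp17lb* and *Usp17la* share their 8 regions.

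All 5 genes had a GFP+ peak over the promoter (2.5 kb upstream to 0.5 kb downstream of a start) and none had a GFP- peak there. Over all protein-coding genes, this combination was found in 436 (1.99%). All 5 also had GFP+ peaks and no GFP- peak on the gene body, a combination found in 461 protein-coding genes (2.1%). At the median protein-coding gene, GFP+ peaks covered 2.18% and GFP- peaks 3.09% of the body. Genes were not matched for length in this comparison. The *Usp17l* bodies are only 2347 to 9422 bp long, so few peaks can cover a large share of them.

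*Usp17ld* (ENSMUSG00000057321.2, also called Dub2a) lies on the minus strand at chr7:103249737-103252505. Within 50 kb lay 9 GFP-positive-specific regions, 1 GFP-negative-specific region and 2 common ones. The body carried 2 GFP+ peaks, which covered 43.0% of it. The peak over the start was weak, with a fold enrichment of 3.70 and a −log10 q of 1.93. The GFP-positive-specific region of the gene with the highest fold enrichment and −log10 q was 2.25 kb upstream at chr7:103253897-103255039, with a fold enrichment of 6.40, the highest among the 31, and a −log10 q of 7.09. This upstream region matched the start-site region with 97.9% identity over 373 bp, so it holds a further copy of the start of the gene. Another 3 GFP-positive-specific regions followed between 5.09 and 8.70 kb from the gene, with fold enrichments of 4.68 to 5.08. The last 3 stood 37.06 to 49.15 kb upstream, near the edge of the window.

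*Usp17lc* (ENSMUSG00000058976.4, Dub2) lies on the plus strand at chr7:103415072-103419880 and differed from the other members in having few regions. It had 3 within 50 kb, all of them GFP-positive-specific, and no GFP- peak. They lay over the outer start (fold enrichment 4.79, −log10 q 4.30), over the last exon (3.89 and 2.72) and 0.053 kb past the gene end (3.94 and 2.53). The 2 peaks on the body covered 53.4% of it and 98.3% of its coding sequence. All 3 therefore lay on the gene or next to its end.

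*Usp17le* (ENSMUSG00000043073.10, Dub3) is the longest member and lies on the minus strand at chr7:104768049-104777470. With 12 GFP-positive-specific regions and 1 common region it had the most of the 5. More GFP-positive-specific regions than this were found in 223 of the 21938 protein-coding genes, more than at *Usp17ld* in 525, more than at *Usp17lb* and *Usp17la* in 1058 and more than at *Usp17lc* in 4123. The body carried 5 GFP+ peaks, which covered 47.3% of it, 95.2% of its exon sequence and 34.5% of its introns. The 3 GFP-positive-specific regions of this gene with the highest −log10 q lay inside it, 6.70, 4.58 and 2.43 kb from the start. Their −log10 q was 5.44, 8.10 and 7.09, the value of 8.10 being the highest of the 31 GFP-positive-specific regions. By fold enrichment (4.57, 4.21 and 4.56) they stood below 2 regions downstream of the gene (4.86 and 4.80). These 3 regions matched the start-site region of the same gene and those of other members, so the gene body holds several copies of the start-site sequence, each with a peak. The 3 matched each other with 97.1% to 99.5% identity. Words of 100 bases occurred 2 times (by the median) around the summits at 6.70 and 2.43 kb and 1 time around that at 4.58 kb. Reads with equally good positions were placed at random, so these peaks do not show that each copy was occupied. The peak over the annotated start itself had a fold enrichment of 3.97 and a −log10 q of 3.34.

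*Usp17lb* (ENSMUSG00000062369.2, Dub1a), on the minus strand at chr7:104840257-104842603, and *Usp17la* (ENSMUSG00000054568.7, Dub1), on the plus strand at chr7:104857009-104862667, are divergent neighbours whose windows hold the same 7 GFP-positive-specific regions and 1 common region. *Usp17lb* had 2 GFP+ peaks that covered 92.7% of its body and 100% of its exons. There were 16 protein-coding genes with a larger difference in covered share between the lists. The peak over its start had a fold enrichment of 5.24 and a −log10 q of 5.20, both the highest of the 5 start-site peaks. *Usp17la* had 4 GFP+ peaks, which covered 41.7% of the body. They were weaker, with fold enrichments of 3.002 to 3.74 and −log10 q of 1.46 to 2.72, the last being the peak over the start.

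**Figure D2:**
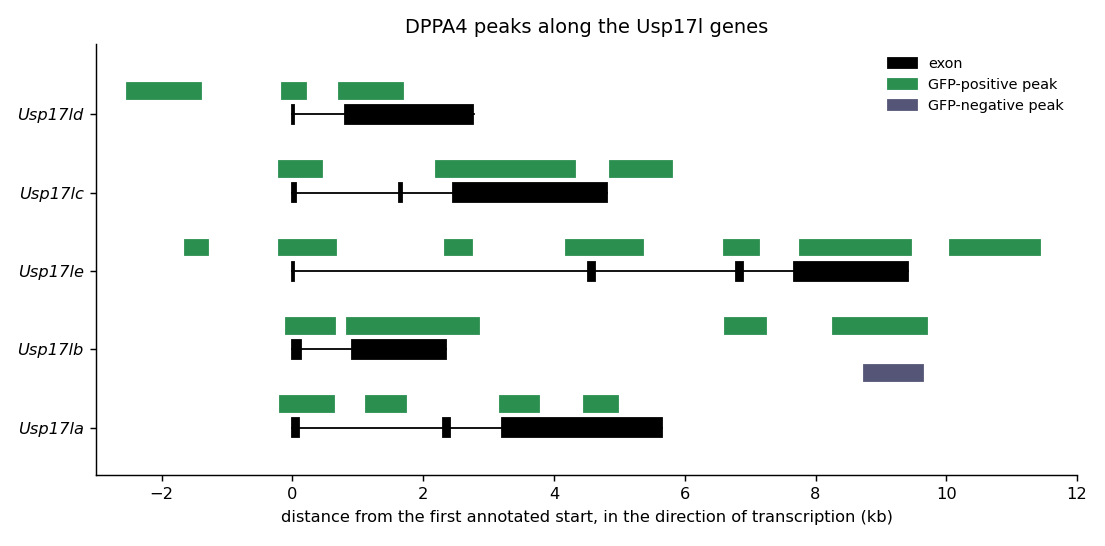
Exons (black) of the 5 genes with GFP+ peaks above (green) and GFP- peaks below (grey-blue), by distance from the first annotated start in the direction of transcription (x axis, kb; 1 gene per row). Every gene had a GFP+ peak over its start and over its last exon, and the GFP- peak in view lies beyond the end of *Usp17lb*.

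The 15 GFP-positive-specific regions on the gene bodies were followed by 9 within 10 kb, 2 from 10 to 25 kb and 5 from 25 to 50 kb. Widening the windows to 100 kb brought the count from 31 to 32. The 31 regions were of middling strength. Their median fold enrichment was 4.09 (3.002 to 6.40) and their median −log10 q 2.72 (1.46 to 8.10), against medians of 3.55 and 2.07 over all GFP-positive-specific regions. They were also wider, with a median of 872 bp against 571 bp. In 15 of the 31 the −log10 q was at least 3, and in 6 it was at least 5. The 5 start-site summits lay 13 to 221 bp downstream of the start.

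The 4 common regions were the strongest of the 36 and none of them touched a gene body. Their fold enrichment was 7.36 to 11.8 in the GFP+ list and 5.92 to 10 in the GFP- list. The one 30 kb upstream of *Usp17ld* had a −log10 q of 34.4 in the GFP+ list and 12.3 in the GFP- list. The region 5.92 kb downstream of *Usp17lb* had values of 20.7 and 10.6, and that 46.1 kb downstream of *Usp17le* 18.6 and 13.4. The fourth, 47.0 kb downstream of *Usp17ld*, had the higher value in the GFP- list, 16.3 against 10.2. Values of the 2 lists are set side by side and were not scaled to each other. The lone GFP-negative-specific region, 48.4 kb downstream of *Usp17ld*, was 183 bp wide with a −log10 q of 1.65. Over its 183 bp it matched the common region downstream of *Usp17le* with 98.4% identity.

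**Figure D3:**
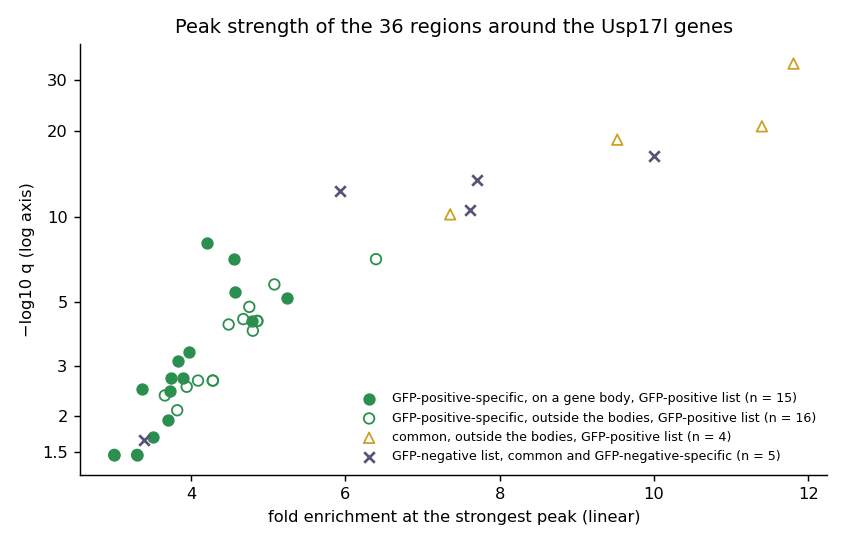
Fold enrichment (x axis) and −log10 q (y axis, log scale) of the strongest peak in each of the 36 regions, by class and list. The GFP-positive-specific regions (green, filled on the gene bodies) lie at fold enrichments of 3.002 to 6.40 and the common regions (triangles, GFP+ list) at 7.36 to 11.8.

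The summits of the common regions are shown because the 4 regions were related to each other and to none of the GFP-positive-specific ones by a match of at least 200 bp. Capitals mark runs of at least 10 bases found, on either strand, in another of the 4 summits.
47.0 kb downstream of Usp17ld, chr7:103201899-103201999, + strand: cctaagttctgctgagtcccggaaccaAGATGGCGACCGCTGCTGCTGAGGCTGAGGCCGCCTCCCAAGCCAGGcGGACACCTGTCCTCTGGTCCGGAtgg
46.1 kb downstream of Usp17le, chr7:104721116-104721216, + strand: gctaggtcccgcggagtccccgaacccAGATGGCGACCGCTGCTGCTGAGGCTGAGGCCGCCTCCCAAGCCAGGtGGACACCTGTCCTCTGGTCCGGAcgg
30 kb upstream of Usp17ld, chr7:103283040-103283140, + strand: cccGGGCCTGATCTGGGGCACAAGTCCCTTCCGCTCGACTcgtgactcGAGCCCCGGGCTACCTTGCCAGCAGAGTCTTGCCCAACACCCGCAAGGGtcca
5.92 kb downstream of Usp17lb, chr7:104833544-104833644, + strand: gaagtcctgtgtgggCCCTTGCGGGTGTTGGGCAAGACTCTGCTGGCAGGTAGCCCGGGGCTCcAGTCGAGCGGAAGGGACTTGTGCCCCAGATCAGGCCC

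The first pair aligned with 92.1% identity over 609 bp and the second pair with 91.9% over 521 bp, the second in opposite orientation. All bases in the 200 bp around these summits were soft-masked, that is, marked as repeats in the reference. In 3 of the 4 the 31-base words around the summit occurred at least 10 times in the genome (by the median), and up to 3721 times. Words of 100 bases, the length of a read, occurred 154 times around the summit upstream of *Usp17ld* and 85 times around that downstream of *Usp17ld*, but once around the other two. Reads with several equally good positions had been placed at one of them at random, so the signal at the first 2 summits does not tell which copy was occupied. Over the whole regions, the unique share of 100-base words was 31.5% upstream and 81.7% downstream of *Usp17ld*. It was 70.4% downstream of *Usp17le* and 74.85% downstream of *Usp17lb*.

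The GFP-positive-specific regions fell into sequence groups that follow the structure of the genes. A group of 10 held the 5 start-site regions, the upstream copy at *Usp17ld*, the 3 inner regions of *Usp17le* and an intronic region of *Usp17la*, with matches of 87.3% to 99.5% identity. A group of 6 held the last-exon regions of all 5 genes, with matches of 90.6% to 99.9%. A further 2 groups of 4 lay in the flanks (85.8% to 93.0% and 82.2% to 95.5%). The other 7 GFP-positive-specific regions and the GFP-negative-specific region had no match of at least 200 bp and 80% identity among the 36. Regions in one group are therefore not independent observations of binding. The Wilson interval above takes all 36 regions as independent, so it may be too narrow.

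**Figure D4:**
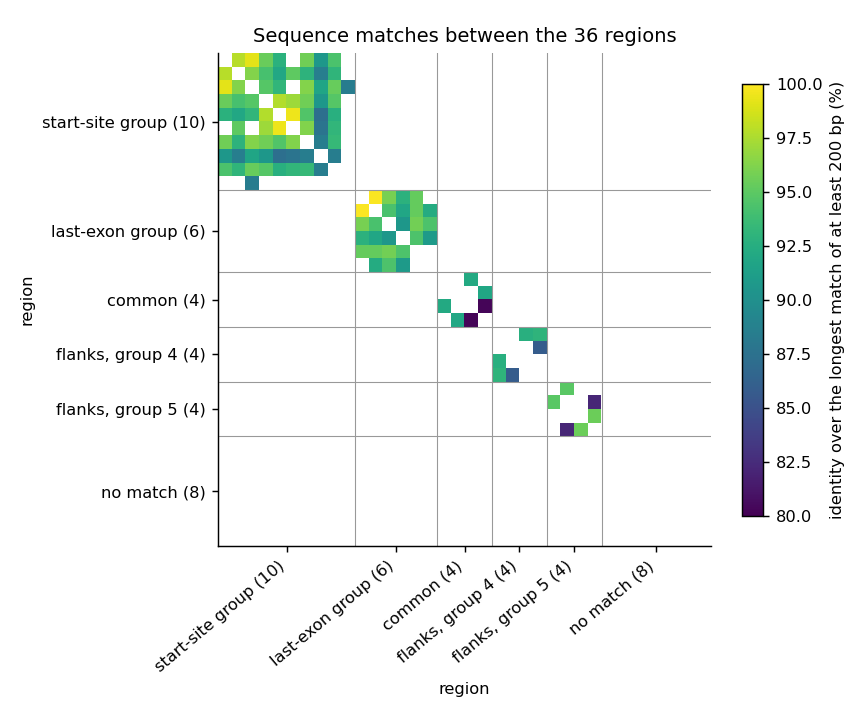
Identity of the longest match between each pair of the 36 regions (color, 80% to 100%; white, no match of at least 200 bp and 80% identity, and the diagonal), with regions ordered by sequence group on both axes. The start-site group of 10 and the last-exon group of 6 hold GFP-positive-specific regions alone, and the group of 4 common regions matches neither.

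The copies differ in how well reads can be assigned to them. *Usp17lc* and *Usp17ld* shared 98.4% of their coding sequence, the closest of the 10 pairs, while the other pairs shared 90.6% to 94.4%. Words of 100 bases occurred once in the genome at 55.7% of positions in *Usp17ld*, 65.75% in *Usp17lc*, 85.7% in *Usp17le*, 93.15% in *Usp17lb* and 96.6% in *Usp17la*. In the last-exon region of *Usp17ld* this was 11.3%, and that region matched its counterpart in *Usp17lc* with 99.9% identity over 981 bp. Peaks there cannot be told apart by gene. At the start-site regions of *Usp17la* and *Usp17lb*, by contrast, 100% of the 100-base words were unique, and at that of *Usp17le* 94.65%. At those of *Usp17ld* and *Usp17lc* the share was 73.3% and 72.3%. At the inner regions of *Usp17le*, 6.70, 4.58 and 2.43 kb from the start, it was 69.5%, 53.6% and 40.5%. On the gene bodies, 0 of the 15 regions had summit sequence with 10 or more copies, against 23.3% of the GFP-positive-specific regions of chromosome 7. More than 1 copy was found in 40% of the 15 and in 37.5% of those of chromosome 7. The median share of unique 100-base words was lower on the bodies, 83.5% against 100%.

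Soft-masked sequence made up 8.77% of the GFP-positive-specific regions on the gene bodies and 64.5% of those in the flanks. The gene bodies as a whole were 21.4% soft-masked and the windows 52.2%. Over all GFP-positive-specific regions of the genome the share was 52.3%, so the peaks on the *Usp17l* genes lay in sequence poorer in annotated repeats than is usual for this class. CpG numbered 6.13 per kb in the regions on the gene bodies, 9.18 per kb in all 31 GFP-positive-specific regions and 16.8 per kb in this class over the genome. The 4 common regions had 32.2 per kb, against 38.8 per kb in all common regions. The DUX motif was found in 1 of the 31 (3.23%), an intronic region of *Usp17la*, and in 0.503% of all GFP-positive-specific regions.

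The *Olfr* genes around the family, which encode odorant receptors, had few peaks in either list. Within 500 kb there were 92 protein-coding *Olfr* genes, of which 2 had a GFP+ peak over the promoter and 1 a GFP- peak. Of all 21938 protein-coding genes, 13581 had a GFP+ and 15360 a GFP- peak there. On the *Olfr* bodies 1 had a GFP+ peak and 1 a GFP- peak, in both cases *Olfr658*. The windows of 50 kb around these 92 genes, without the *Usp17l* windows, span 1.76 Mb. They held 11 common regions, 5 GFP-positive-specific and 0 GFP-negative-specific ones. The GFP-positive-specific share was 31.3% (Wilson interval 14.2% to 55.6%). Per Mb, GFP-positive-specific regions numbered 77.1 in the *Usp17l* windows, 2.84 in the *Olfr* windows and 6.71 in the genome. Common regions were closer in density, at 9.95, 6.25 and 12.8 per Mb. Over all 236 *Olfr* genes of chromosome 7, the GFP-positive-specific regions numbered 2.76 per Mb.

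**Figure D5:**
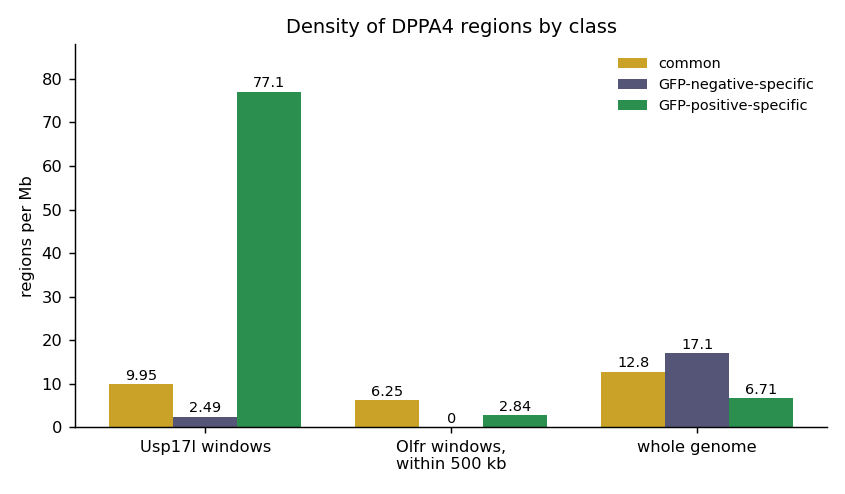
Regions per Mb (y axis) of each class in the *Usp17l* windows, in the windows of the 92 nearby *Olfr* genes and in the whole genome (x axis). The GFP-positive-specific bar stands at 77.1 in the *Usp17l* windows and at 2.84 in the *Olfr* windows, while common regions lie between 6.25 and 12.8 in all 3. Each bar is a single count over a length, with no replicate.

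The 9 protein-coding *Olfr* genes within 50 kb of a member had no peak over the promoter or the body in either list. Of these, *Olfr665*, 15.4 kb from *Usp17la* and 35.4 kb from *Usp17lb*, was nearest to both. *Olfr605* lay 20.5 kb from *Usp17lc*, *Olfr594* 27.4 kb from *Usp17ld*, and *Olfr661* 76.7 kb from *Usp17le*. The *Olfr* genes with the most GFP-positive-specific regions within 50 kb were *Olfr665* with 7, *Olfr593*, *Olfr594* and *Olfr596* with 6 each and *Olfr666* with 5. These counts include the regions of the neighbouring *Usp17l* genes. Altogether the windows held 20 other annotated genes, and none had a peak of either list on its body.

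The copies of the protease sequence found outside the 5 genes had no peaks. A search with the coding sequence of *Usp17lc* alone found 7 places with a match of at least 500 bp. They were the 5 genes, the pseudogene *Usp17le-ps* (91.7% identity to *Usp17lc* over 700 bp) and the processed pseudogene *Gm5053* (91.9% over 1373 bp). The coding sequences of the other members were not searched. Neither pseudogene had a peak of either list over the match. *Usp17le-ps* had 1 region within 50 kb, which was common and lay 4.62 kb away.

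The other ubiquitin-specific proteases of the genome, 51 *Usp* genes, showed another arrangement. In 47 of them both lists had a peak over the promoter, and in 0 the GFP+ list alone, against 5 of 5 *Usp17l* genes. Over all 21938 protein-coding genes, both lists had one in 13145 and the GFP+ list alone in 436. The median number of GFP-positive-specific regions within 50 kb was 1 in the other *Usp* genes and 7 in the *Usp17l* genes. Over all protein-coding genes it was also 1. *Usp12* had 17, *Usp21* 10, and *Usp34* and *Usp7* 8 each, all with promoter peaks in both lists.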

How the data were processed

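The deposited files were 2 peak lists in narrowPeak format, each pooled by the authors over the 2 anti-DPPA4 libraries of its group; the 2 IgG libraries were not used here. Per the labels and the methods of the study, paired reads were aligned to mm10 with STAR 2.7.10, equally good positions being resolved at random, duplicates were removed with Picard 2.26.0, reads over blacklisted regions were dropped with SAMtools 1.14, and peaks were called on fragments with MACS2 2.2.6. Random placement spreads reads that fit several copies equally well over those copies. The deposited fold enrichment is a ratio over the background MACS2 estimated, and the deposited −log10 q gives the adjusted significance of a summit. The deposited summit offset was used to place summits, and the deposited score was not used. Depth per library was not used here and is unknown, so the precision of a single peak cannot be given.

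Peaks sharing at least 1 bp between the lists were joined into regions (Python 3.11.15, NumPy 2.4.6). The joining was checked on 3000 simulated regions, of which 3000 were recovered. Regions within 50 kb of a gene body were counted over merged windows, and promoters ran from 2.5 kb upstream to 0.5 kb downstream of each GENCODE vM21 start. Sequences were read from GRCm38.p6 with pysam 0.24.0, and regions were matched with BLAST+ 2.17.0 (at least 200 bp and 80% identity). Intervals are Wilson 95% intervals from SciPy 1.17.1, take regions as independent and cover counting error only. With 1 pooled list per group no test was possible. There were 0 unused columns of per-sample values.

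The 5 members, the *Olfr* and *Usp* lists and the sequence features were chosen with earlier results of these data known. Named were all members, the *Olfr* genes nearest to each member and the 5 with the most GFP-positive-specific regions, the *Usp* genes with the most, and the regions over starts, of highest −log10 q, common or GFP-negative-specific. Alternatives covered the overlap rule, the −log10 q minimum, list length, window, promoter span and *Olfr* set.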

Additional observations from a re-analysis of the deposited data

How the results depend on the processing

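Of 55 recomputed values, 40 stayed close to the reported ones and 15 moved. Close meant inside a Wilson interval for shares and within a fixed fold change for counts and densities. GFP-positive-specific regions per Mb were higher in the *Usp17l* windows than in the *Olfr* windows in 12 of 12 settings. When peaks of either list needed a −log10 q of 3 or more, 15 GFP-positive-specific regions (37.3 per Mb) were left around the *Usp17l* genes. At a minimum of 5 there were 6 (14.9 per Mb, and 1.70 in the *Olfr* windows), 60% of the regions were GFP-positive-specific, 63.3% of the sequence of all regions was soft-masked, and 2 of the 5 genes had a GFP-positive peak over the promoter. Within 10 kb the GFP-positive-specific share was 96%, the density 201 per Mb and the soft-masked share 31.3%, against 46.2% at 50 kb. Within 25 kb the share was 96.3%, and within 100 kb the density was 48.1 per Mb. In the *Olfr* windows the density was 5.11 per Mb when common regions needed summits within 200 bp, and 5.83 for *Olfr* genes within 200 kb. The −log10 q minimum leaves fewer peaks, and the distances and the *Olfr* set change the windows counted; the cause of the shift with the summit rule was not tested. No paired analysis was possible because each list pools its libraries. No library could be left out for the same reason. Without read totals, a missing GFP-negative peak cannot be told apart from one below detection. Copies share reads where a read fits them equally well.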
